A study of Bos taurus with 44 samples.

Results

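The genes described here mark T cells or carry the costimulatory signals that T cells exchange with B cells, monocytes and dendritic cells. They are CD4, CD5, CD27, CD28, CTLA4, CD69, CD40LG, CD40, CD80 and CD86, which makes 10 of the 141 named genes on a spotted cDNA array for cattle. They were chosen by name, as the spots to which the platform annotation gives exactly 1 of these symbols, which were 88 of 1680 spots. CD28 had 16 spots and each of the other genes had 8. All 10 symbols matched the RefSeq gene table of cattle (assembly ARS-UCD2.0). In that table CD28 and CTLA4 are neighbours with 0 protein-coding genes between them, CD80 and CD86 lie on 1 chromosome with 27 such genes between them, and CD4 and CD27 lie on another with 18 between them.

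Blood mononuclear cells were taken from female Holstein cows 6 days after immunization, isolated on a Percoll gradient and lysed without further treatment. The labels class 1 cow as high for both antibody response (Ab) and a cell-mediated response (DTH), called the shared cow here, 2 further cows as high-Ab, 2 further cows as high-DTH, 3 cows as low-Ab and 3 as low-DTH. The shared cow is cow 1 of both high groups, so each comparison within a trait set 3 high cows against 3 low cows. All cows, high and low, had been immunized, and the labels name neither the antigens nor any ages. On each of the 44 two-colour arrays the RNA of a cow was hybridised together with 1 RNA standard common to all arrays, likewise made from mononuclear cells of blood, with the dyes Alexa647 and Alexa555 swapped on part of each cow's arrays. Values are deposited log ratios, read as log2 of cow over standard, a direction that no label states. All signs would turn together under the opposite reading.

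A T cell is activated when its receptor meets antigen and a costimulatory receptor is engaged at the same time. CD28 gives that costimulatory signal on binding CD80 or CD86 on an antigen-presenting cell, and CTLA4 competes for the same ligands and restrains the response. CD40LG, which appears on activated helper T cells, binds CD40 on B cells and other antigen-presenting cells and drives antibody class switching and germinal centres. CD4 is the coreceptor of helper T cells, CD5 dampens receptor signals and is carried by T cells and some B cells, CD27 is a costimulatory receptor of the TNF receptor family, and CD69 is a membrane protein that appears early after activation.

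The sign of 3 arrays is open to doubt. They are called the odd arrays here and were the first pair of arrays of low-Ab cow 1 and the last of the 3 arrays of low-DTH cow 3. Their mean correlation with arrays of other cows was below 0, while no other array of the 41 fell under 0.05. They were kept as deposited, and the results that rest on them are also given with their signs turned. Averaging arrays of opposite sign drew low-Ab cow 1 towards 0, so that the SD of its ratios over the 141 genes was 0.055 as deposited and 0.24 with its odd arrays turned. The mean ratio of the 4 CD3 chains, used here as markers of T cells, lay between 0.46 and 1.00 in high-Ab cows and between −0.05 and 0.26 in low-Ab cows. It lay between 0.59 and 1.00 in high-DTH cows and between 0.06 and 0.51 in low-DTH cows. Once the odd arrays were turned, the low-Ab cows lay between 0.25 and 0.34, still below the high-Ab cows, and the low-DTH cows between 0.06 and 0.79, which overlapped the high-DTH cows. Of the chains, CD247 overlapped by DTH as deposited too. It was at 0.73, 0.45 and 0.19 in high-DTH cows 1 to 3, against −0.11, −0.39 and 0.87 in low-DTH cows 1 to 3. The ratios are set against a standard of the same kind of cells, so they do not show whether a marker was present or absent. In such bulk samples, fewer cells of a type and less RNA per cell cannot be told apart.

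CD69 had the highest mean ratio to the standard of all 141 genes. Its ratio averaged 0.88 ± 0.60 over the cows (SD, n = 11), and 1.01 ± 0.53 with the odd arrays turned, again the highest. The SD between cows was the 5th largest as deposited and the 9th largest with the odd arrays turned. CD69 was above 0 on 36 of the 41 arrays that were not odd.

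Among single cows, CD69 was at 1.06 in the shared cow, 1.52 and 0.44 in high-Ab cows 2 and 3, and 0.65 and 0.85 in high-DTH cows 2 and 3. In low-Ab cows 1 to 3 it was at −0.04, 1.42 and 1.90, and in low-DTH cows 1 to 3 at 0.71, 0.06 and 1.11. The lowest and the highest cow of all were both low-Ab cows, and the high and low cows overlapped for each trait. The value near 0 of low-Ab cow 1 averaged 2 odd arrays at −1.45 and −1.07 with arrays 3 and 4 at 0.95 and 1.43, and became 1.23 with the odd arrays turned. In low-DTH cow 2, none of whose arrays was odd, arrays 1 and 2 were at 0.38 and 0.97 and arrays 3 and 4 at −0.85 and −0.25. High-DTH cows 2 and 3 also had an array below 0, array 3 at −0.02 and −0.21, and so had low-DTH cow 1, array 4 at −0.07. Every array below 0 that was not odd thus came from a cow classed by DTH alone. The arrays of 1 cow could differ in the sign of CD69, and the SD between arrays of a cow was 0.52 over the 41 arrays.

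**Figure D1:**
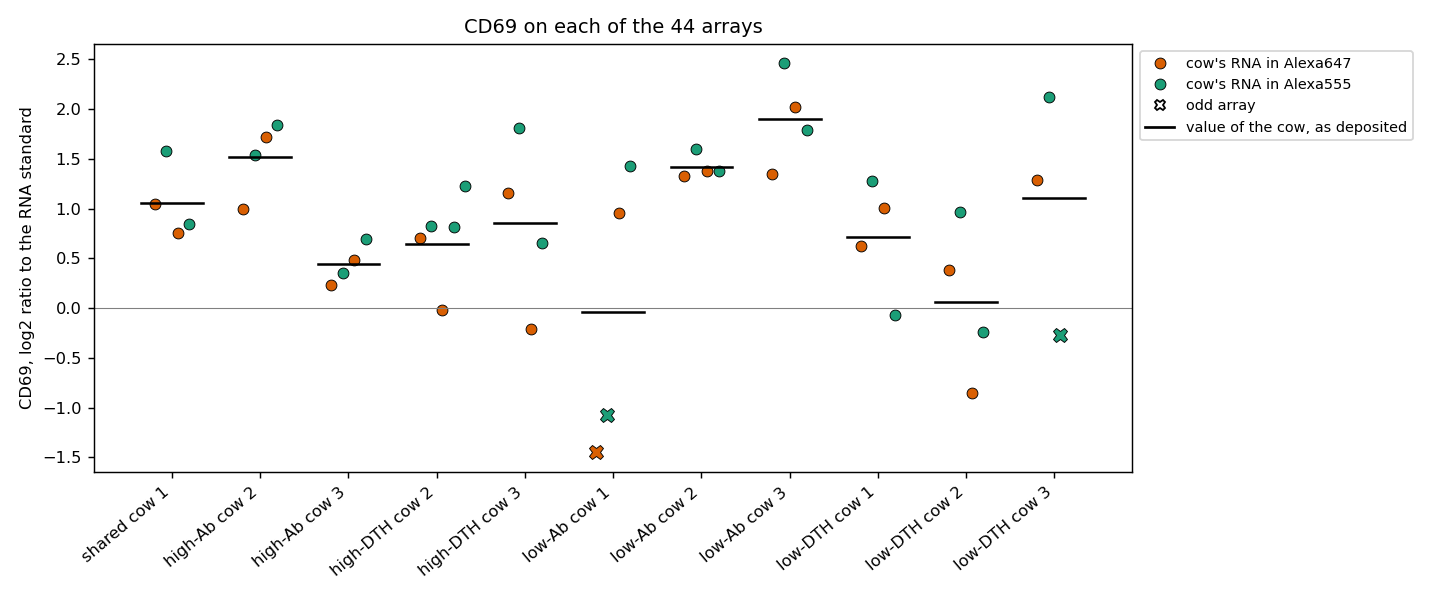
CD69 on each of the 44 arrays, as log2 ratio to the RNA standard, by cow. Colours give the dye of the cow's RNA, crosses are the 3 odd arrays, and bars are the value of the cow, from −0.04 in low-Ab cow 1 to 1.90 in low-Ab cow 3.

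CD69 did not separate high from low cows. The high-Ab cows averaged 1.01 ± 0.54 and the low-Ab cows 1.10 ± 1.01 (SD, n = 3 each), a difference of −0.09 with a 95% interval from −1.37 to 1.18 (limma, adjusted p = 0.999). With the odd arrays turned the difference was −0.51, with an interval from −1.26 to 0.23 (limma, adjusted p = 0.661). In high-DTH cows the mean was 0.85 ± 0.20, against 0.63 ± 0.53 for low-DTH cows, which gave a difference of 0.23 with an interval from −0.43 to 0.89 (limma, adjusted p = 0.815). Ordered by mean, low-Ab stood above high-Ab, then high-DTH and low-DTH, and neighbours in this order differed by less than the larger of their SDs.

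CTLA4, the inhibitory receptor, also had ratios above the standard. As deposited it was the 1 gene of the 10 above 0 in 11 of 11 cows, with a lowest value of 0.10, a median of 0.24 and a highest of 0.47, and on 35 of 41 arrays. Its mean of 0.27 ± 0.11 ranked 8th of the 141 genes. The ratio differed between dyes, and its mean was 0.33 higher when the cow's RNA carried Alexa647, in 10 of 11 cows as deposited. The dye values of low-Ab cow 1, at 0.49 in Alexa647 and −0.29 in Alexa555, hold its odd arrays. So does the Alexa555 value of low-DTH cow 3, at −0.21 against 0.63 in Alexa647. The dye difference was not computed with the odd arrays turned, so its size is not settled.

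CTLA4 was at 0.24, 0.40 and 0.22 in high-Ab cows 1 to 3, against 0.10, 0.35 and 0.47 in low-Ab cows 1 to 3. The groups overlapped and differed by −0.02 ± 0.12 (SE; limma, adjusted p = 0.999). With the odd arrays turned low-Ab cow 1 was at 0.40, and the difference was −0.12 ± 0.09 (limma, adjusted p = 0.802). The groups still overlapped. For the other trait it was at 0.24, 0.15 and 0.21 in high-DTH cows 1 to 3, against 0.38, 0.27 and 0.21 in low-DTH cows 1 to 3. The difference was −0.08 ± 0.09 (limma, adjusted p = 0.797), and with the odd array turned low-DTH cow 3 was at 0.57, the groups no longer overlapped and the difference was −0.20 ± 0.10 (limma, adjusted p = 0.430). CD86 was the counterpart on the other side of the standard, below 0 in 10 of 11 cows with a mean of −0.12 ± 0.09. The exception, low-Ab cow 1 at 0.03, rests on its odd arrays. With the odd arrays turned CD86 was below 0 in 11 of 11 cows, with a mean of −0.15 ± 0.10. It too differed between dyes. Over the cows it ran from −0.43 to −0.07 in Alexa647 and from −0.21 to 0.18, on both sides of 0, in Alexa555.

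CD4, the helper coreceptor, had the smallest p of the 10 genes for antibody response, and it did not pass the test. It was at 0.23, 0.21 and 0.23 in high-Ab cows 1 to 3, against −0.09, 0.0029 and 0.19 in low-Ab cows 1 to 3. The 3 high-Ab cows lay close together and above all 3 low-Ab cows. The difference was 0.19 ± 0.10 (SE), with a 95% interval from −0.06 to 0.44 (limma, adjusted p = 0.858), and the exact two-sided permutation test gave p = 0.1, the smallest that 3 against 3 cows allow. With the odd arrays turned the difference was 0.14 ± 0.08 (limma, adjusted p = 0.661) and the groups still did not overlap.

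The closeness of the 3 high-Ab cows in CD4 did not extend to their arrays. Single arrays ran from −0.03 to 0.34 in the shared cow, from −0.13 to 0.63 in high-Ab cow 2 and from −0.37 to 0.59 in high-Ab cow 3. Over the 41 arrays the SD between arrays of a cow was 0.27, larger than the difference between groups. The share of the variance of CD4 that lay between cows was estimated at −0.12, where 0 or less means that arrays of 1 cow were no more alike than arrays of different cows. On arrays with the cow's RNA in Alexa647 the high-Ab minus low-Ab difference was 0.33, and on those in Alexa555 it was 0.05. Each of these 2 values holds an odd array of low-Ab cow 1 as deposited, at 0.0069 in Alexa647 and −0.31 in Alexa555. Neither was fitted with it turned, so the sign in Alexa555 is not settled. The difference ran the same way as that of the CD3 chains, of which 4 of 4 had higher ratios in high-Ab cows (median difference 0.56) and 0 of 4 passed adjustment. Their part in the CD4 values was not tested.

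CD4 was at 0.23, 0.14 and 0.09 in high-DTH cows 1 to 3, against 0.09, −0.06 and 0.27 in low-DTH cows 1 to 3. These groups overlapped, with a difference of 0.05 ± 0.11 (limma, adjusted p = 0.868). As deposited, the order of the group means was high-Ab, high-DTH, low-DTH and low-Ab. With the odd arrays turned, low-Ab stood above low-DTH. In both settings the gaps between neighbours stayed within the larger of their SDs, except that between high-Ab at 0.223 ± 0.011 and high-DTH at 0.151 ± 0.070. The gap of 0.072 between these groups was just above the larger SD. Those 2 groups share a cow, and that gap was not tested.

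CD5 was highest in the shared cow. It stood at 0.50 there, against −0.15 to 0.20 in the other 10 cows, and the 4 arrays of the shared cow gave 0.53, 0.64, 0.40 and 0.41. In this cow the ratio was repeatable over arrays and both dyes. Since the shared cow counts in both high groups, it carried both differences of CD5, which were 0.19 ± 0.17 for Ab (limma, adjusted p = 0.933) and 0.19 ± 0.15 for DTH (limma, adjusted p = 0.757). Without the shared cow they were 0.02 and 0.06.

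The costimulatory receptors CD27 and CD28 stayed near the standard. CD27 ranged from −0.07 to 0.26 over the cows. It was at 0.09, 0.07 and 0.11 in high-Ab cows 1 to 3, against −0.01, 0.16 and −0.07 in low-Ab cows 1 to 3, so that the low cows lay on both sides of the high ones. The difference was 0.07 ± 0.10 (limma, adjusted p = 0.988). In high-DTH cows 1 to 3 it was at 0.09, 0.09 and −0.06, against 0.15, 0.02 and 0.26 in low-DTH cows 1 to 3, a difference of −0.10 ± 0.10 (limma, adjusted p = 0.796).

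CD28 ranged from −0.07 to 0.13 over the cows, and its 95% intervals ran from −0.27 to 0.20 for Ab and from −0.15 to 0.25 for DTH. Its spots came in 2 print sets of 8, which were annotated with 1 accession but barely followed each other over the 44 arrays (r = 0.04, a description of arrays that share cows). Their means over cows were 0.08 and 0.05. For DTH they differed in sign, with high minus low at 0.12 in 1 set and −0.01 in the other, so the CD28 difference of 0.05 ± 0.08 (limma, adjusted p = 0.853) has no settled direction. For Ab both sets were below 0, at −0.05 and −0.03.

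CD40LG, the helper signal to B cells, varied little between cows. Its ratio was 0.08 in each of the 3 high-Ab cows, and 0.03, 0.08 and 0.13 in low-Ab cows 1 to 3. The group means did not differ beyond that spread, with a 95% interval of the difference from −0.20 to 0.20. It was at 0.08, 0.0074 and −0.02 in high-DTH cows 1 to 3, against 0.07, −0.11 and 0.09 in low-DTH cows 1 to 3, with an interval from −0.22 to 0.24. Ordered by mean, low-Ab and high-Ab stood above high-DTH and low-DTH. The gap of 0.057 between high-Ab and high-DTH, which share a cow, was above the larger SD of 0.051, and the other gaps were within theirs as deposited. With the odd arrays turned, the gap of 0.028 between low-Ab and high-Ab was also above the larger SD, of 0.023.

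CD40, its receptor, was the member with the smallest unadjusted p by DTH class, without passing the test. It was at −0.37, −0.19 and −0.13 in high-DTH cows 1 to 3, against −0.05, 0.27 and −0.01 in low-DTH cows 1 to 3. All 3 high-DTH cows lay below all 3 low-DTH cows, and 1 low cow stood well above the others. The difference was −0.30 ± 0.12 (SE), with a 95% interval from −0.60 to 0.003 (limma, unadjusted p = 0.052, adjusted p = 0.505, exact two-sided permutation p = 0.1). With the odd array turned it was −0.38 ± 0.12 (limma, unadjusted p = 0.019, adjusted p = 0.347).

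The gap in CD40 depended on single cows and arrays in size. Without low-DTH cow 2 the difference was −0.20, without the shared cow it was −0.23, and on arrays 3 to 5 alone it was −0.12. In that last subset low-DTH cow 3 had only its odd array, at −0.50 as deposited. The difference was −0.35 on arrays with the cow's RNA in Alexa647 and −0.25 on those in Alexa555, which also hold this odd array. These subsets were not fitted with it turned. The measured B cell markers were also lower in high-DTH cows, 3 of 3 without passing adjustment, at −0.68 ± 0.58 for IGHM, the heavy chain of IgM, −0.26 ± 0.16 for JCHAIN, the chain that joins IgM and IgA, and −0.13 ± 0.09 for CD72, a B cell inhibitory receptor. Their mean ratio ran from −0.46 to 0.12 in high-DTH cows and from −0.03 to 0.61 in low-DTH cows, highest in low-DTH cow 2, where CD40 was highest too. Their part in the CD40 values was not tested. Of the monocyte and dendritic cell markers, which come from other cells that carry CD40, 3 of 6 were higher and 3 lower by DTH, with a median difference of 0.02.

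By antibody response the groups overlapped in CD40, at −0.37, −0.01 and 0.003 in high-Ab cows 1 to 3, against −0.07, −0.20 and −0.02 in low-Ab cows 1 to 3. The difference was −0.03 ± 0.13, with a 95% interval from −0.34 to 0.29 (limma, adjusted p = 0.999). The Ab effect less the DTH effect was 0.27 ± 0.14 for CD40 as deposited (limma, adjusted p = 0.610) and 0.39 ± 0.13 with the odd arrays turned (limma, adjusted p = 0.146). CD40 ranked 14th of the 141 genes by p in that test, and it did not pass either way. As deposited, low-DTH was highest among the group means at 0.07 ± 0.17, followed by low-Ab, high-Ab and high-DTH at −0.23 ± 0.12. Each gap between neighbours was then within the larger of their SDs. With the odd arrays turned, low-DTH was at 0.15 ± 0.17. Its gap of 0.28 to high-Ab, the next group, was above the larger SD of 0.21, and that gap was not tested.

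The 2 ligands of CD28 and CTLA4 showed no shared pattern. CD80 was at −0.02, 0.23 and 0.13 in high-Ab cows 1 to 3, against −0.05, 0.12 and 0.03 in low-Ab cows 1 to 3. It was at −0.02, 0.01 and −0.37 in high-DTH cows 1 to 3, against −0.13, −0.15 and −0.0021 in low-DTH cows 1 to 3. High-DTH cow 3 was the lowest of all, and its arrays 1 to 4 gave −0.13, −0.03, −0.55 and −0.77. CD86 was at −0.19, −0.11 and −0.04 in high-Ab cows 1 to 3, against 0.03, −0.13 and −0.03 in low-Ab cows 1 to 3. CD86 was at −0.19, −0.06 and −0.21 in high-DTH cows 1 to 3, against −0.12, −0.26 and −0.18 in low-DTH cows 1 to 3. High and low cows overlapped for both ligands and both traits. Neither gene passed the test, with CD80 at 0.08 ± 0.10 for Ab and −0.03 ± 0.13 for DTH, and CD86 at −0.07 ± 0.09 and 0.03 ± 0.09 (SE). As deposited, CD80 was ordered by mean as high-Ab, low-Ab, low-DTH and high-DTH. The gap of 0.13 between low-Ab and low-DTH was above their SDs of 0.08 each, a difference between traits that was not tested. With the odd arrays turned, high-DTH followed low-Ab and every gap of CD80 was within the larger SD. For CD86, CTLA4, CD5, CD27 and CD28 every gap between neighbouring group means was within the larger SD as deposited. With the odd arrays turned the exception was CD28, where low-Ab stood 0.062 above high-DTH, against a larger SD of 0.040.

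**Figure D2:**
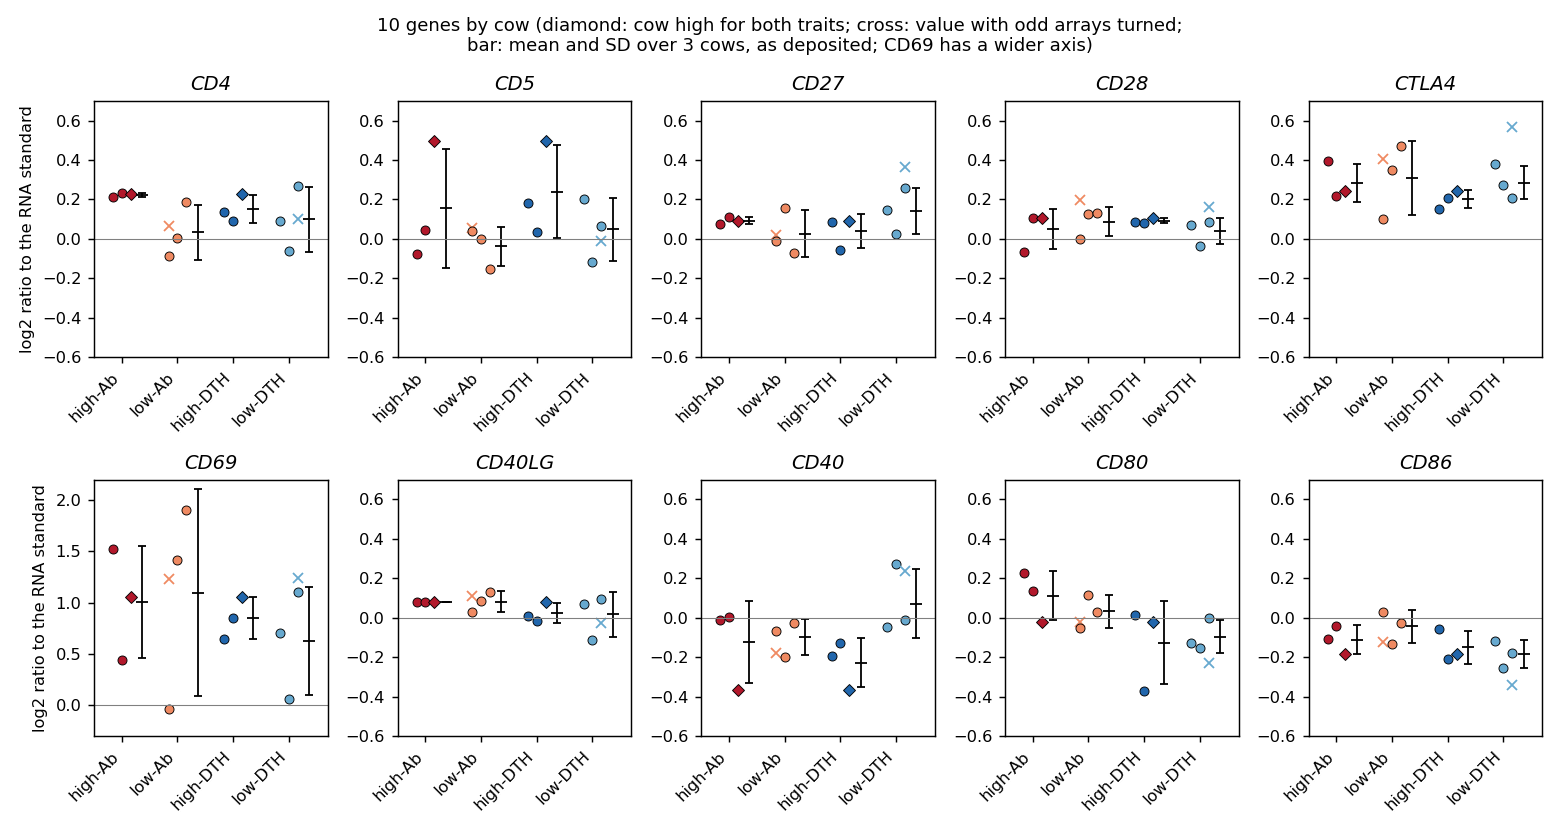
Log2 ratio to the RNA standard of each gene in each cow, with the high group left of the low group of each trait. Bars are the mean and SD over 3 cows as deposited, diamonds are the shared cow, which appears in both high groups, and crosses show cows whose odd arrays were turned; CD69 has a wider axis. CD4 in high-Ab cows lies between 0.21 and 0.23, and CD40 in high-DTH cows lies below the low-DTH cows.

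Over all 10 genes, limma called none in any comparison at an adjusted p under 0.05. Over all features tested it called 0 of 562 (0%) for Ab and 0 of 565 (0%) for DTH, and 37 and 55 features had an unadjusted p under 0.05. Of the 10 genes, 0 had an unadjusted p under 0.05 for either trait, against 10 and 12 of the 141 genes. The median difference of the 10 genes was −0.01 for Ab and 0.02 for DTH, against −0.01 and −0.03 over the 141 genes. With the odd arrays turned, CD40 was the 1 gene of the 10 with an unadjusted p under 0.05 for DTH, against 18 of the 141 genes (12.8%).

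High and low cows did not overlap in 1 of the 10 genes for Ab, CD4, against 15 of the 141 genes (10.6%). For DTH they did not overlap in 1 of 10, CD40, against 22 of 141 (15.6%). Both counts were near or under the share over all named genes. With the odd arrays turned, CD28 and CD40LG joined CD4 for Ab, both lower in high-Ab cows, and CTLA4 joined CD40 for DTH. That made 3 of the 10 genes for Ab and 2 for DTH, against 21 (14.9%) and 27 (19.1%) of the 141 genes in that setting. The Ab and DTH comparisons share a high cow, so their values are not independent of each other.

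**Figure D3:**
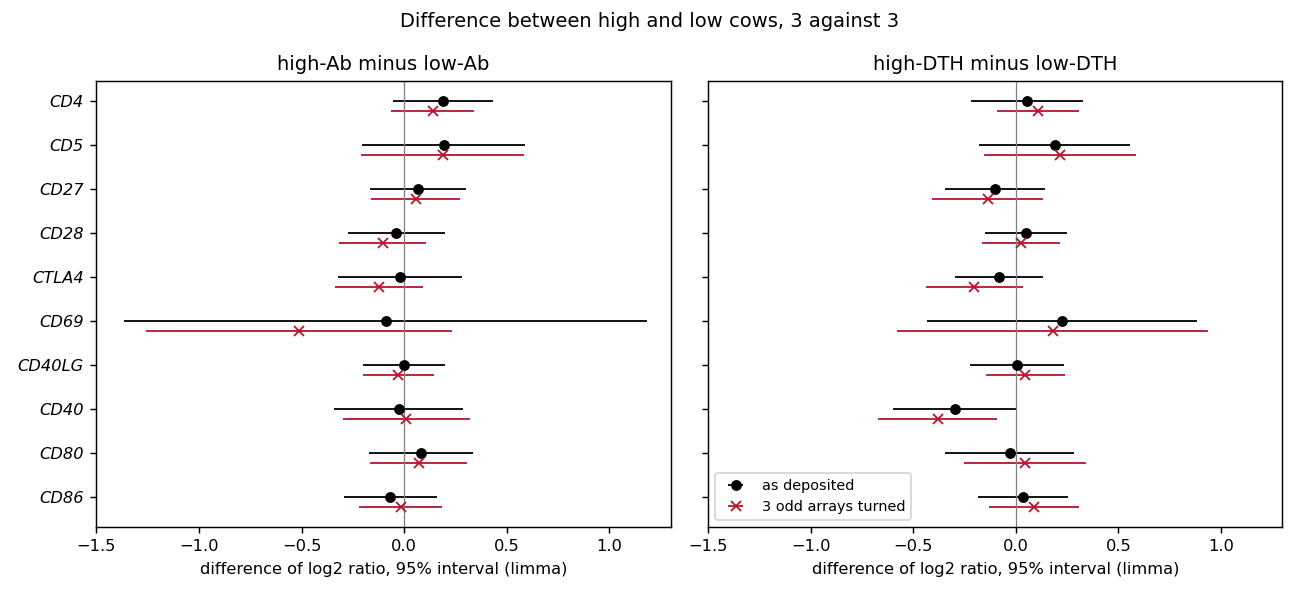
Difference of the log2 ratio between high and low cows for each gene, with 95% intervals from limma, as deposited and with the 3 odd arrays turned. The intervals include 0 for each gene except CD40 by DTH with the odd arrays turned, where they end at −0.09, and CD69 has the widest, from −1.37 to 1.18 for Ab.

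The difference between the Ab and DTH effects was tested over all 11 cows, where 7 of 561 features (1.25%) passed as deposited and 0 with the odd arrays turned. None of the 10 genes was among the 7. The effects of CD69 differed by −0.32 ± 0.65 and those of CD27 by 0.17 ± 0.13 (SE). All 5 high cows were also set against all 6 low cows, and limma called 0 of 561 features (0%), with 20 at an unadjusted p under 0.05. CD4 was 0.11 ± 0.08 higher, CD5 0.13 ± 0.10 higher and CD40 differed by −0.12 ± 0.09 (limma, adjusted p = 0.996 for each). No gene of the 10 was without overlap there, against 2 of 141 genes (1.42%). With the odd arrays turned, CTLA4 averaged 0.24 ± 0.09 over the 5 high cows and 0.41 ± 0.10 over the 6 low cows, which differed by −0.16 ± 0.07 (SE), a value that did not pass adjustment (limma, unadjusted p = 0.035, adjusted p = 0.996).

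The repeatability of the arrays sets how finely these genes could be compared. The share of variance between cows, over the 41 arrays, was 0.48 for CD69, 0.37 for CD5, 0.34 for CD80, 0.32 for CD40 and 0.30 for CD27. For CD28 and CD40LG it was 0.20 and 0.19, close to the median of 0.19 over the 141 genes. For CD4, CTLA4 and CD86 it was below 0, at −0.12, −0.10 and −0.03, in the lower part of a distribution whose quartiles were −0.05 and 0.42. Differences between cows in these 3 genes were no larger than arrays of 1 cow would give.

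For several of the genes the ratios differed between the dye orientations. CD40 was higher in every one of the 11 cows when the cow's RNA was in Alexa647, by 0.25 on average. CD86 was lower in all 11 cows, by 0.21, and CD69 was lower in 9 of 11, by 0.29. Of the 141 genes 16 (11.3%) had the same sign in all 11 cows, among them these 2 of the 10, CD40 and CD86. These dye differences hold the odd arrays as deposited and were not computed with them turned. Each cow had arrays of both orientations, and its value gives each orientation equal weight.

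**Figure D4:**
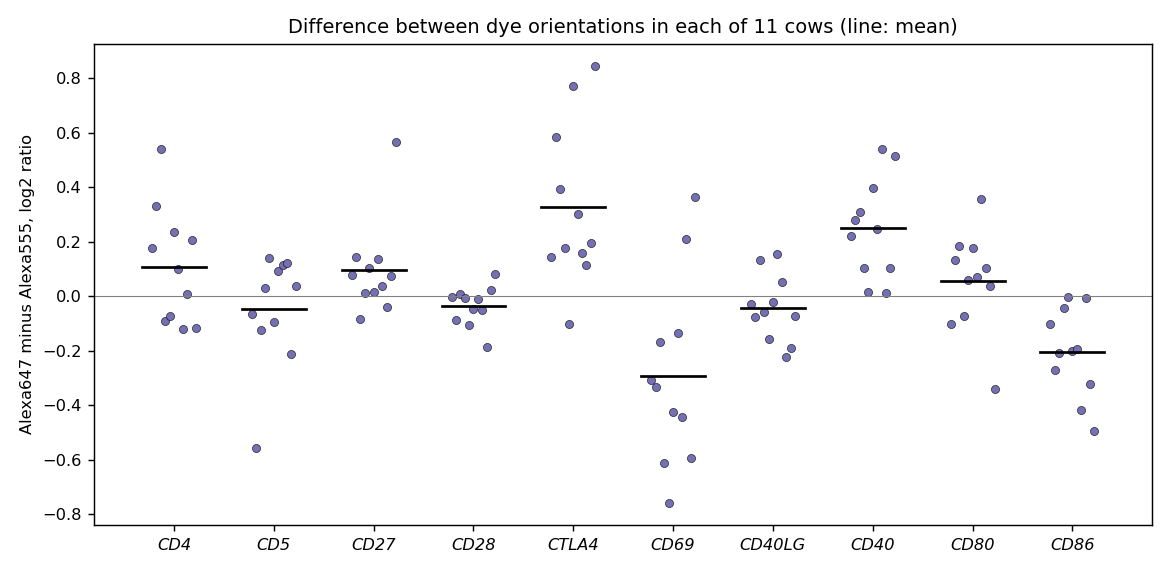
Log2 ratio on arrays with the cow's RNA in Alexa647 minus that on arrays in Alexa555, for each of 11 cows and each gene, as deposited. The line is the mean, at 0.33 for CTLA4, 0.25 for CD40, −0.21 for CD86 and −0.29 for CD69.

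Of the genes around this system, the array measured few from the lists used here. None of 20 other costimulation and adhesion genes was measured, ICOS, PDCD1 and CD70 included, and of 18 other T cell genes 3 were. CD163L1, which marks gamma delta T cells in cattle, differed by 0.76 ± 0.35 for Ab and 0.45 ± 0.37 for DTH, IL2RA by −0.03 ± 0.10 and −0.09 ± 0.09, and the homing receptor CCR7 by −0.02 ± 0.14 and 0.07 ± 0.13. Of the CD40 and NF-kB signalling genes 2 of 13 were measured, with NFKB1 at 0.04 ± 0.11 and −0.07 ± 0.09 and NFKB2 at −0.03 ± 0.10 and −0.04 ± 0.09. Of 8 measured cytokine genes of activated T cells, 2 were higher and 6 lower in high-Ab cows, and 1 was higher and 7 lower in high-DTH cows. Of the 141 genes, 77 were lower for Ab and 85 for DTH. The median difference of the 8 cytokine genes was −0.04 for each trait. With the odd arrays turned, 3 of them were higher and 5 lower for each trait, with medians of −0.04 for Ab and −0.0007 for DTH. None of the genes in these lists passed adjustment in either comparison.

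Patterns over the 11 cows were compared between each of the 10 genes and each other named gene, 1355 pairs in all. The gene most like CD4 was the interferon alpha gene IFNAC (r = 0.89, permutation p = 0.00016, rho = 0.89, permutation p = 0.00051, adjusted p = 0.072 for r), and without low-Ab cow 1 and low-DTH cow 2 the r was 0.86. SOD1 and the CD3 zeta chain gene CD247 followed. The gene most like CD69 was CSF3, a myeloid growth factor (r = 0.88, permutation p = 0.00050, rho = 0.83, permutation p = 0.0026, adjusted p = 0.105), with r = 0.86 without low-Ab cows 3 and 1. MIF and TGFB1 followed. The genes most like CD40 were the class II gene BOLA-DMA (r = 0.80, permutation p = 0.0044, rho = 0.51, permutation p = 0.11, adjusted p = 0.205), PSMC5 and FCGR2B. The r with BOLA-DMA fell to 0.28 without the 2 cows of most extreme CD40, so it rests on them. Without these cows the r with PSMC5 went from 0.80 to 0.67 and that with FCGR2B from 0.80 to 0.74.

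The other closest genes were CCR3, BCL2L1 and DAXX for CD5, IGIP, IGF1 and SERPINA7 for CD27, and CCR4, LTF and CXCR4 for CD28. For CTLA4 they were MIF, IL4 and CD69, and for CD40LG they were IL17A, CRHR1 and IFNG. SDF1, GHR and IL2RA were closest to CD80, and ESR2, CCL20 and CRHR1 to CD86. None of these 30 pairs passed adjustment over the 1355, and none of the 45 pairs within the 10 genes did. Within the 10 genes the largest r was that of CTLA4 and CD69 (r = 0.73, permutation p = 0.011, rho = 0.64, permutation p = 0.041, adjusted p = 0.260), which was 0.47 without low-Ab cow 3 and high-Ab cow 2. CD5 and CD40 came close to it in size with the opposite sign (r = −0.73, permutation p = 0.017, rho = −0.45, permutation p = 0.16, adjusted p = 0.299). Their r was −0.58 without the shared cow and low-Ab cow 3. CD28 and CTLA4, neighbours on the chromosome, had r = 0.07 (permutation p = 0.83, rho = 0.13, permutation p = 0.71), and r = 0.67 without high-Ab cow 2 and low-DTH cow 2.

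The pair that passed adjustment, CD69 and NFKB1, ran in opposite directions, and it is named because of its value. NFKB1 encodes a subunit of NF-kB. Over the 11 cows r was −0.95 and rho −0.95, each with a permutation p of 2e-05 (adjusted p = 0.027). Without low-Ab cows 3 and 1, r was −0.96. Among the 5 high cows r was −0.93 and among the 6 low cows −0.97. The range of NFKB1 was small, from −0.25 in low-Ab cow 3 to 0.07 in low-DTH cow 2, the cows with the highest and the second lowest CD69.

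With the odd arrays turned, the r of CD69 and NFKB1 was −0.85 (permutation p = 0.00092, rho = −0.83, permutation p = 0.0025, adjusted p = 0.199), and −0.66 without low-DTH cow 2 and low-Ab cow 3. On arrays with the cow's RNA in Alexa647 alone r was −0.72 (rho = −0.70), and on those in Alexa555 alone −0.76 (rho = −0.56). On arrays 1 and 2 alone it was −0.86 (rho = −0.83), and on arrays 3 to 5 alone −0.66 (rho = −0.50). These subsets held the odd arrays as deposited. The points share the RNA standard and the arrays. The sign of r was the same in each of these settings, and the pair passed adjustment as deposited but not with the odd arrays turned or left out.

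**Figure D5:**
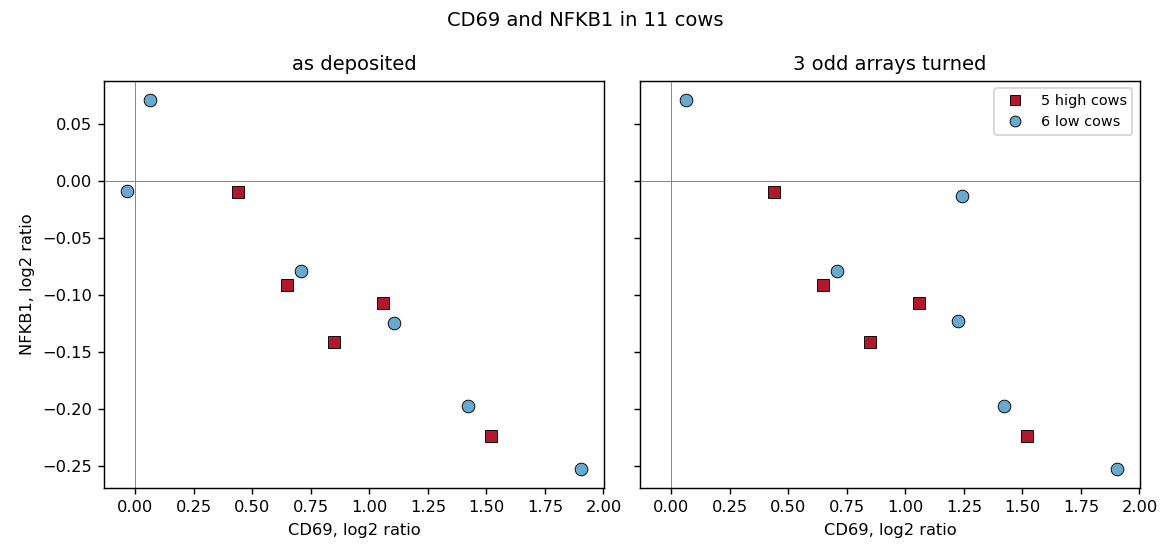
NFKB1 against CD69, both as log2 ratio to the RNA standard, with 1 point per cow, as deposited and with the 3 odd arrays turned. Squares are the 5 high cows and circles the 6 low cows, and r was −0.95 as deposited and −0.85 with the odd arrays turned.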

How the data were processed

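Blood mononuclear cell RNA of 11 cows, counting same-numbered cows of separate label groups as separate animals, was amplified and hybridised with a common standard on 44 arrays, per the labels' protocols. The authors deposited a log ratio for every spot of every array, treated as log2. No source used here gives the log base, direction, background correction or normalization. Array medians lay between −0.08 and 0.07. No intensities were used, so signal over background is unknown and the number of arrays limits precision. Opposite-dye arrays of a cow correlated above 0 (mean r = 0.37 over 44 pairs), so no sign was applied. Spots were averaged per gene and array (16 of 3872 member spot values were missing), arrays within dye, then over dyes. The platform annotation gave 1 symbol for 1224 spots, several for 16 and none for 440. limma 3.58.1 (R 4.3.3; lmFit, eBayes, Benjamini-Hochberg, 0.05) ran over named genes and unnamed spots, without the control vapA, and was tested on simulated data. Correlations used 100000 permutations (Python 3.11.15, scipy 1.17.1).

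Named were all 10 genes, up to 4 genes of each list furthest from 0 in a comparison, and the 3 genes of highest r per gene. A difference smaller than its SE was given no direction. Members and lists were chosen with earlier results of these data known. Same-numbered cows of a trait deviated in opposite directions (r from −0.51 to −0.13), so cow numbers were not taken as pairs.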

Additional observations from a re-analysis of the deposited data

Results flagged for a closer look

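Of 20 groups of high or low cows tested for a cow far from the rest, 2 had one, and chance gives about 1 in 20. CD27 was at −0.0567 in high-DTH cow 3, the lowest of the 5 high cows, and the gap to the next was 0.779 of the whole range (critical value 0.710). CD28 was at −0.0678 in high-Ab cow 2, the lowest of the 5 high cows, with a gap of 0.855 of the range. In high-DTH cow 3 CD27 was at 0.16 and −0.0045 on arrays 1 and 2 and at −0.17 and −0.21 on arrays 3 and 4. In high-Ab cow 2 CD28 was at −0.30 on array 3 and between −0.04 and 0.08 on the other 3. Its 2 print sets were at −0.23 and −0.37 on array 3, but at −0.40 and 0.27 on array 4.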

How the results depend on the processing

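No member was called under any of 830 alternatives of the 40 member differences (4 comparisons of 10 genes). Of the 40, 10 were larger than their SE, and 9 of these kept their sign throughout. The exception was CD40 over all cows, −0.125, which was 0.0269 on arrays 3 to 5 alone. There low-DTH cow 3 had only its odd array, at −0.497 as deposited. The alternatives of 1 dye, of arrays 1 and 2 and of arrays 3 to 5 kept the odd arrays as deposited. The count of features called for Ab was 0 and became 15 in an array-level fit with the cow as a random block, and 0 to 1 when 1 cow was left out (1 without the shared cow). For DTH it was 2 in the array-level fit and for all cows 9, against 0 each. The 7 features of the difference between effects became 0 with the odd arrays turned, with them left out, after quantile normalization, in either dye alone, on arrays 1 and 2 alone and on arrays 3 to 5 alone, 4 with a plain mean over arrays, 2 with named genes only, 2 in the array-level fit, and 0 to 7 when 1 cow was left out. The 1 correlated pair became 0 with the odd arrays turned or left out. With the cow number as a replicate block, 0 features were called for Ab, DTH and all cows. The causes were not tested.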
